A study of Homo sapiens with 6 samples.

Results

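The mitochondrial ribosomal proteins are the nuclear-encoded proteins of the ribosome that works inside mitochondria. The members were taken from GENCODE 44 as the protein-coding genes whose symbol is MRPL or MRPS followed by a number, together with DAP3. This gave 79 genes of 62252 listed, of which 19991 are protein-coding. By symbol, 49 belong to the large subunit (MRPL) and 30 to the small subunit (MRPS and DAP3). Messenger RNA was sequenced from K562, a human erythroleukemia cell line, in 3 libraries without doxycycline (−Dox) and 3 with doxycycline (+Dox). All 6 libraries come from K562 flox cells with a tet-inducible Flag-PCBP1 cassette and puromycin resistance exchanged into the AAVS1 locus. The parental K562 flox line was grown from a single clone, and by the study's methods the lines with a cassette were kept as polyclonal populations under puromycin. PCBP1 is a protein that binds cytosine-rich RNA and also carries iron to its client enzymes. The −Dox cells carry the same cassette without the inducer, so the drug and the Flag-PCBP1 protein cannot be told apart as sources of a difference between the groups. The dose and the duration of doxycycline are not given for these libraries in the sources used here. The labels do not say whether replicates were separate cultures, and p-values then measure only the spread between these samples.

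The mitochondrial ribosome makes only the membrane proteins of the respiratory chain and of ATP synthase that the mitochondrial genome encodes. Its RNA comes from that genome, while every one of its proteins is made in the cytosol and imported. It is related to the bacterial ribosome, and tetracyclines such as doxycycline, which bind the small subunit of bacterial ribosomes and block the entry of tRNA, also slow protein synthesis in mitochondria.

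The libraries held 70905656 to 84177316 estimated counts each, and the members took 0.675% to 0.743% of them. The lowest mean count of a member was 2021.5, so that all 79 passed the filter on low counts. The induced gene was checked first. PCBP1 stood at 247.5, 269.5 and 266.9 CPM (counts relative to the library's total, scaled by TMM factors) in the −Dox libraries and at 1029.6, 936.4 and 1037.3 CPM in the +Dox libraries. The groups did not overlap, and the mean was 3.83-fold higher in +Dox (log2 fold change 1.94, SE 0.055, edgeR adjusted p = 5.22e-10). An exact two-sided permutation test of the 6 CPM values gave p = 0.1, which is the smallest that 3 against 3 libraries allow. All 10 markers of K562-like cells were above 1 TPM (Salmon's level of a transcript or gene, scaled for length and depth) on average, among them GATA1, KLF1 and the fetal globin genes. Of markers of other cell types, CD3E, CD2, MS4A1, CD79A, CD14, CSF1R, COL1A1, COL1A2, DCN and CDH1 were below 1 TPM. CD3D, LYZ, EPCAM and KRT8 were above it. The summed level of the 3 monocyte markers, nearly all of it LYZ, was 94.1, 109 and 131 TPM in −Dox and 73.2, 77.3 and 85.4 TPM in +Dox, without overlap, while the defining markers CD14 and CSF1R were below 1 TPM. LYZ itself fell (log2 fold change −0.47, edgeR adjusted p = 0.00837). Of the epithelial markers, EPCAM was at 37.98, 37.32 and 34.8 TPM in −Dox and at 32.2, 31.4 and 34.2 TPM in +Dox, lower without overlap, and did not pass (−0.12, adjusted p = 0.155). KRT8 overlapped. The summed T cell markers, nearly all CD3D, were between 33.7 and 57.4 TPM with overlapping groups. The part of these genes in the results below was not tested. In libraries from bulk cells, fewer cells that use a gene and less RNA of it per cell cannot be told apart.

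Libraries with the label replicate 2 stood apart from the rest in the members. The −Dox replicate 2 library had the highest CPM in 53 of the 79 genes, and the +Dox replicate 2 library had the lowest CPM in 53. The median of log2 CPM over the members, taken relative to each gene's mean, was −0.03, 0.13 and 0.06 in −Dox replicates 1 to 3. It was −0.01, −0.12 and −0.01 in +Dox replicates 1 to 3. On this scale the groups overlapped, since −Dox replicate 1 was below +Dox replicates 1 and 3. Over all genes tested the same median stayed between −0.0028 and 0.0074. By Salmon's effective lengths, RNA fragments were also longer in +Dox: the median difference between a transcript's length and its effective length was 284, 280 and 286 bases in −Dox and 297, 298 and 295 bases in +Dox, without overlap. Mitochondrial ribosomal protein mRNAs are short, with a median canonical length of 1260 bases against 3273 for the protein-coding genes tested. The part of fragment length in the results was not tested beyond the fit with a length offset given below.

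Mitochondrial ribosomal protein mRNAs fell or did not pass the test in +Dox, and none rose. At an edgeR adjusted p under 0.05, 20 of the 79 members fell (25.3%), 0 rose and 59 did not pass, where 7.68% of the 21045 genes tested fell and 8.16% rose. Among the 4802 protein-coding genes with at least as much TPM as the lowest member, 16.1% fell and 12.3% rose. DESeq2 also called 0 members higher, and called 28 lower (background 11.5%). At an unadjusted p under 0.05, 35 members were lower by edgeR (13.8% of all genes tested) and 2 were higher (14.9% of all genes), MRPL24 (log2 fold change 0.16, edgeR adjusted p = 0.0809) and MRPL48 (0.14, adjusted p = 0.114). The log2 fold change was negative in 65 of 79 members, against 48.9% of all genes tested. Its median was −0.11 over the members and 0.0061 over all genes. The changes were small: the values ran from −0.38 in MRPL36 to 0.16 in MRPL24, and 0 members met the limits of the study for differential expression, an adjusted p under 0.05 with an absolute log2 fold change above 1 (1.46% of all genes tested).

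**Figure D1:**
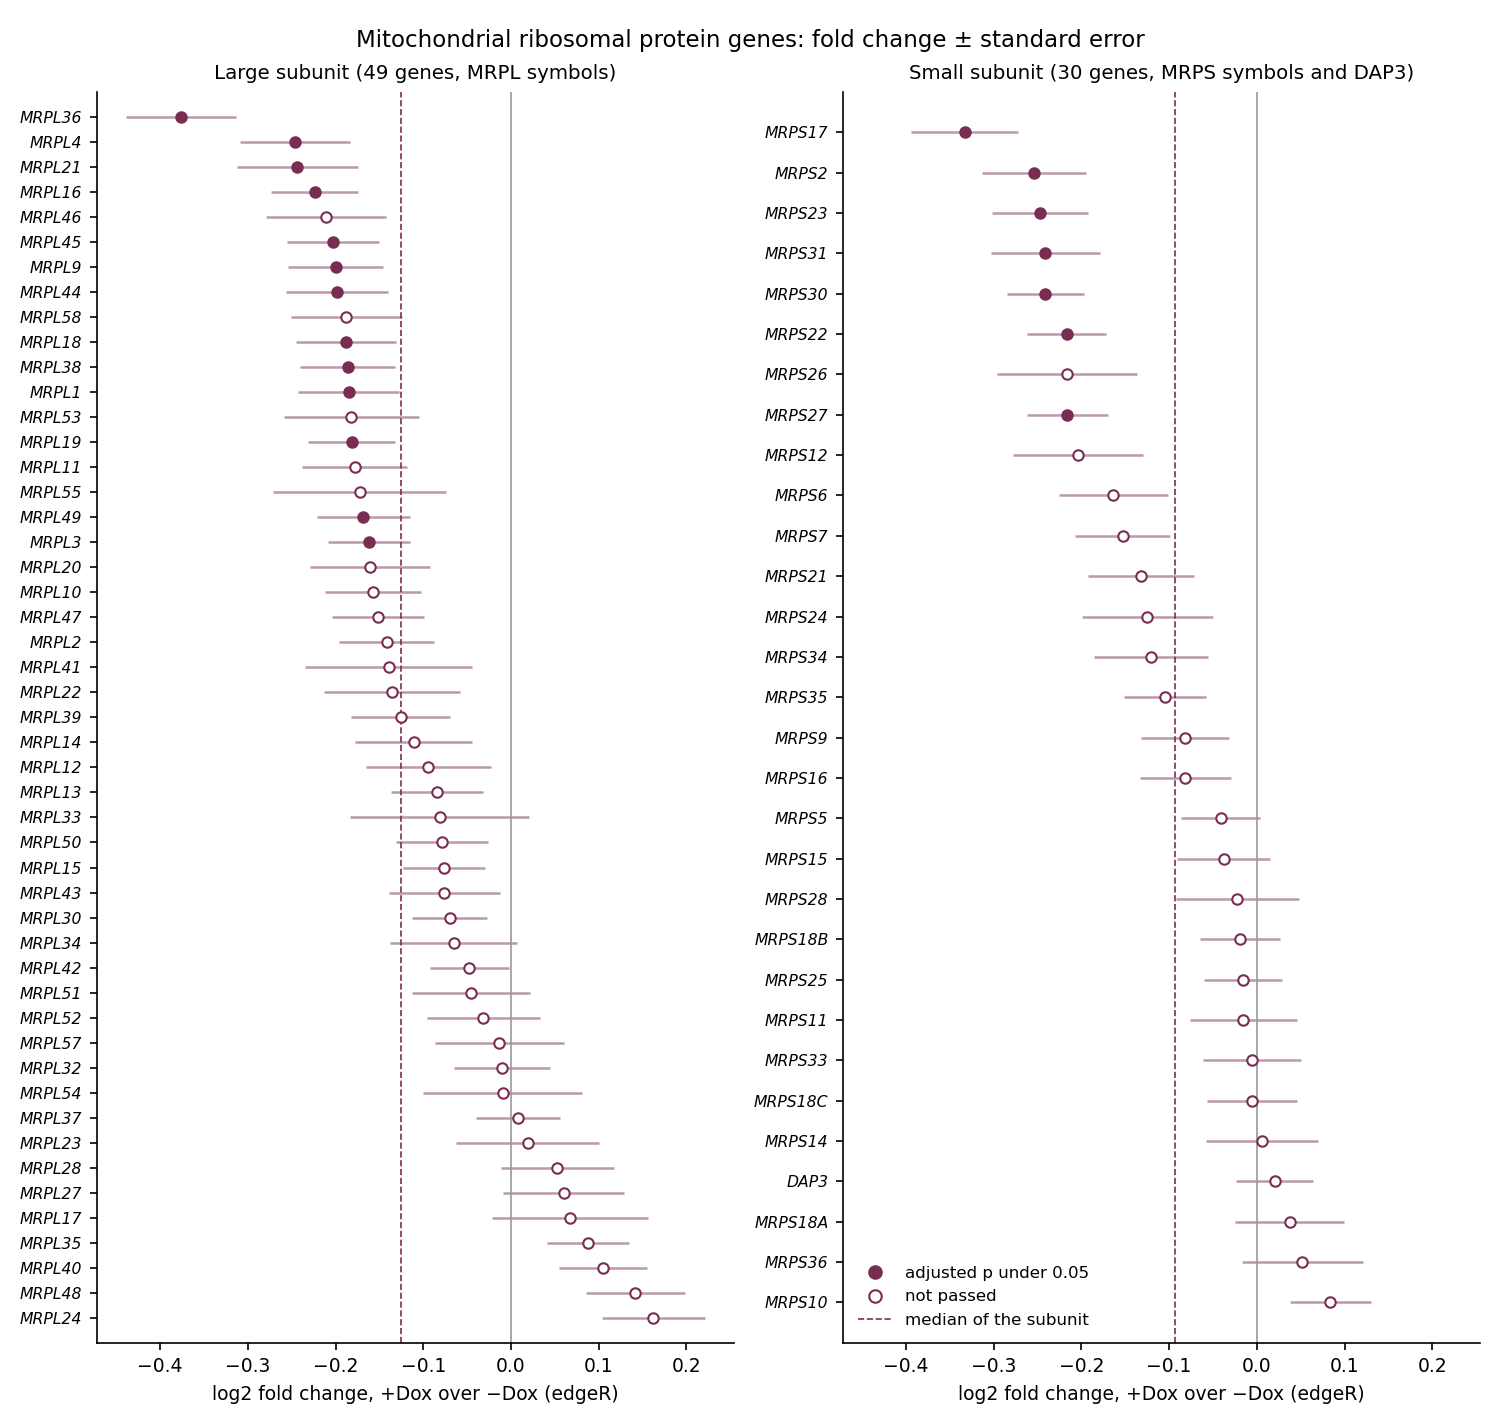
Log2 fold change in +Dox over −Dox (x axis, edgeR, with standard error as bars) for each of the 79 mitochondrial ribosomal protein genes, in order of the value, with the 49 large-subunit genes on the left and the 30 small-subunit genes on the right. Filled points passed an adjusted p under 0.05. All 20 filled points lie left of 0, and the dashed medians stand at −0.13 for the large and −0.09 for the small subunit.

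The number of members called depended on the replicate 2 libraries. With −Dox replicate 2 left out 7 members fell, and with +Dox replicate 2 left out 7 fell (8.86% in each case), where 5.06% and 5.47% of all genes fell. Without both of these libraries, a fit chosen after seeing the data, 2 members fell, MRPL36 and MRPS30. That is 2.53% of the members where 3.80% of all genes fell, and the median over the members was −0.04. Without −Dox replicate 1, which had low values, 35 members fell (8.09% of all genes). Leaving out −Dox replicate 3, +Dox replicate 1 or +Dox replicate 3 gave 9, 10 or 17 members, where 5.29%, 5.46% or 5.32% of all genes fell. No member rose in any of these fits. The calls kept in each of 18 fits, which include other settings and edgeR with 1 library left out, were MRPL36, MRPS17, MRPS22, MRPS27 and MRPS30. These 18 leave out the fit without both replicate 2 libraries and 6 limma fits on TPM with 1 library left out. In the 6 limma fits MRPL36, MRPS17 and MRPS22 were called each time, MRPS30 in 5 (adjusted p at most 0.0563) and MRPS27 in 2 (at most 0.0610). Of the other 15 members that fell, the number of these fits that called a gene ran from 0 to 3. MRPS22 and MRPS27, both without a bacterial counterpart, are named here after their values were seen. A fit with an offset for transcript length in each library called 8 members, all lower (4.60% of all genes), with a median of −0.10 over the members and 0.0017 over all genes. MRPL21, MRPS23 and MRPS31 were among those that lost the call, with log2 fold changes of −0.22, −0.25 and −0.23 in that fit against −0.24, −0.25 and −0.24 without the offset.

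In separate libraries, the groups did not overlap in CPM for 34 members. All +Dox libraries were below all −Dox libraries for 30 of the 79 members (background 15.8%), which include all 20 that fell. The reverse order was found for 4 members, MRPL24, MRPL35, MRPL40 and MRPS10 (background 17.4%). In TPM, +Dox was below −Dox without overlap for 49 members (62.0%, background 18.8% of 16586 genes with a mean of at least 0.5 TPM). TPM was higher without overlap for 3 members, MRPL24, MRPL40 and MRPL48 (background 12.8%). A limma fit on log2(TPM + 0.5) called 21 members lower (5.81% of all genes) and 0 higher. With all genes of any TPM in the fit 14 were called lower (1.41% of all genes). Leaving out −Dox replicates 1, 2 and 3 in turn in the fit with 21 gave 14, 5 and 4 members, where 3.09%, 2.35% and 2.05% of all genes were lower. Leaving out +Dox replicates 1, 2 and 3 gave 4, 11 and 5 members, where 2.35%, 4.39% and 2.19% were. The members' median in it was −0.13, and the median of all genes was −0.03 on that scale.

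The large subunit holds the peptidyl transferase center, where peptide bonds form, and the tunnel through which the new chain leaves. Of its 49 genes by symbol, 13 fell and 36 did not pass, with a median log2 fold change of −0.13. MRPL36 is the counterpart of a small protein of the bacterial large subunit, and it lies at chr5:1798385-1801366 on the minus strand (GRCh38). It was at 214.4, 219.2 and 215.6 TPM in −Dox and at 167.8, 165.5 and 167.3 TPM in +Dox. The −Dox libraries lay close together well above all +Dox libraries, so that the groups were far from overlapping. The mean fell from 216 ± 2.54 to 167 ± 1.201 TPM (SD, n = 3 each), which is 22.9% lower, with a log2 fold change on counts of −0.38 (SE 0.063, edgeR adjusted p = 0.00149). This log2 fold change was the most negative of any member in the edgeR fit, while MRPS17 fell by more in TPM, and the call held without each library in turn (adjusted p at most 0.00935).

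MRPL4, a large-subunit protein with a bacterial counterpart, lies at chr19:10251901-10260055 on the plus strand. Its levels were 88.4, 94.0 and 98.3 TPM in −Dox and 76.3, 78.3 and 76.9 TPM in +Dox. All +Dox libraries were lower, with little spread among them. The log2 fold change was −0.25 (SE 0.063, edgeR adjusted p = 0.0179). The call was lost without −Dox replicate 2 (adjusted p = 0.0722), −Dox replicate 3 (0.0828), +Dox replicate 2 (0.0726) or +Dox replicate 3 (0.0519).

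MRPL21, another protein with a bacterial counterpart, was the second most abundant member and lies at chr11:68891276-68903835 on the minus strand. It stood at 250.6, 264.9 and 270.2 TPM in −Dox and at 222.2, 210.3 and 226.3 TPM in +Dox. The lowest −Dox library, replicate 1, was still above the highest +Dox library. MRPL21 fell by 16.1% in mean TPM, with a log2 fold change of −0.24 (SE 0.069, edgeR adjusted p = 0.0297). Leaving out −Dox replicate 2 raised the adjusted p to 0.109, −Dox replicate 3 to 0.0998, +Dox replicate 2 to 0.117 and +Dox replicate 3 to 0.0540.

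Several large-subunit proteins are known for a role of their own. MRPL58, also called ICT1, is a peptidyl-tRNA hydrolase that became a fixed part of the ribosome and can free chains from stalled ribosomes. Its levels were 78.2, 83.0 and 80.2 TPM in −Dox and 70.0, 69.9 and 70.7 TPM in +Dox, lower in all +Dox libraries, and its log2 fold change of −0.19 did not pass (SE 0.063, edgeR adjusted p = 0.0627). It passed in 7 of 18 fits, among them DESeq2 (adjusted p = 0.0226), limma on TPM (0.0249) and edgeR without −Dox replicate 1 (0.0156). MRPL44, which has a fold like that of RNase III enzymes and in which variants cause an infantile cardiomyopathy, was the least abundant member. It fell from 18.7, 18.2 and 18.8 TPM in −Dox to 15.4, 15.7 and 16.3 TPM in +Dox, without overlap (log2 fold change −0.20, SE 0.059, edgeR adjusted p = 0.0362). Among the edgeR fits with 1 library left out, its call held only without −Dox replicate 1 (adjusted p = 0.0435) or +Dox replicate 3 (0.0310). The adjusted p was between 0.0952 and 0.137 with any other library left out. The rest of the large-subunit genes that fell, MRPL16, MRPL45, MRPL9, MRPL18, MRPL38, MRPL1, MRPL19, MRPL49 and MRPL3, are given after their values were seen and had log2 fold changes from −0.22 in MRPL16 (edgeR adjusted p = 0.00837) to −0.16 in MRPL3 (0.0330). MRPL49 lay just inside the threshold (adjusted p = 0.0493), and MRPL46 just outside it (0.0535). Of these genes, only MRPL16 kept its call in edgeR without each library in turn, while the others each kept it in 1 or 2 of the 6 fits. MRPL16 lost it with the length offset (adjusted p = 0.0513), without both replicate 2 libraries (0.125) and in 3 of the 6 limma fits with a library left out. All of the genes other than MRPL16 lost it when −Dox replicate 2, +Dox replicate 1 or +Dox replicate 2 was left out (adjusted p between 0.0514 and 0.177). In limma on TPM with all libraries, MRPL38 (adjusted p = 0.114) and MRPL49 (0.122) did not pass.

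MRPL12, MRPL11 and MRPL10 form the stalk and its base, the part of the large subunit that recruits translation factors. MRPL12 was at 163.4, 175.7 and 164.4 TPM in −Dox and at 161.5, 151.7 and 152.9 TPM in +Dox, and did not pass (log2 fold change −0.09, SE 0.071, edgeR adjusted p = 0.433). MRPL11 was at 131.4, 140.1 and 129.1 TPM in −Dox and at 120.3, 101.3 and 112.8 TPM in +Dox, and did not pass (−0.18, SE 0.060, adjusted p = 0.0622). Of this level, a mean of 59.9% in −Dox and 57.5% in +Dox lay on MRPL11-206, a transcript annotated as subject to nonsense-mediated decay. MRPL10 was at 25.4, 26.5 and 27.9 TPM in −Dox and at 23.97, 22.35 and 20.37 TPM in +Dox, and did not pass (−0.16, SE 0.055, adjusted p = 0.0724). MRPL11 and MRPL10 passed in DESeq2 (adjusted p = 0.0185 and 0.0422) and in edgeR without −Dox replicate 1 (0.0466 and 0.0359). In TPM all 3 stalk genes were lower in each +Dox library than in each −Dox library, while in CPM MRPL12 overlapped.

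The small subunit binds the mRNA and decodes it, and it is the subunit on which tetracyclines act in bacteria. Of its 30 genes by symbol, 7 fell and 23 did not pass, with a median log2 fold change of −0.09. MRPS17, the counterpart of a bacterial protein that binds ribosomal RNA directly, lies at chr7:55951877-55956500 on the plus strand. It was at 30.3, 32.8 and 30.7 TPM in −Dox and at 23.47, 24.01 and 24.03 TPM in +Dox. The groups were clearly apart, with the +Dox libraries nearly equal. The mean TPM was 23.8% lower, the largest share among the members named by fold change, with a log2 fold change on counts of −0.33 (SE 0.061, edgeR adjusted p = 0.00271), and the call held without each library (adjusted p at most 0.0145) but not without both replicate 2 libraries (0.0544). Its exons overlap on the same strand with an unnamed protein-coding gene at 0.364 TPM over 22.4% of their bases. They also overlap over 2.57% of their bases with NIPSNAP2 at 68.6 TPM, which did not pass (log2 fold change 0.14, edgeR adjusted p = 0.0604).

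MRPS2, a small-subunit protein with a bacterial counterpart in which variants cause a combined respiratory chain deficiency, lies at chr9:135499984-135504673 on the plus strand. Its levels were 43.1, 45.6 and 45.6 TPM in −Dox and 36.1, 37.4 and 36.8 TPM in +Dox. Each +Dox library was below each −Dox library. The log2 fold change was −0.25 (SE 0.059, edgeR adjusted p = 0.0113), and leaving out the replicate 2 library of −Dox (adjusted p = 0.0526) or of +Dox (0.0530) ended the call.

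MRPS23 and MRPS31 have no bacterial counterpart. MRPS23, at chr17:57834781-57850056 on the minus strand, was at 111.4, 126.6 and 123.6 TPM in −Dox and at 100.5, 92.8 and 103.1 TPM in +Dox. The gap between the groups was narrow beside the spread within −Dox, where replicate 1 was low. MRPS23 fell with a log2 fold change of −0.25 (SE 0.055, edgeR adjusted p = 0.00859), and the call held in edgeR without each library (adjusted p at most 0.0456). In limma on TPM it held in 1 of the 6 fits with a library left out (adjusted p up to 0.122). It was lost with the length offset (adjusted p = 0.0917), at a log2 fold change of −0.25, and without both replicate 2 libraries (0.116).

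MRPS31, at chr13:40729128-40771190 on the minus strand, is among the 5 least abundant members. It was at 24.2, 27.3 and 26.7 TPM in −Dox and at 20.2, 22.9 and 21.9 TPM in +Dox. The groups did not overlap, but the lowest −Dox and the highest +Dox library lay close together. MRPS31 fell with a log2 fold change of −0.24 (SE 0.062, edgeR adjusted p = 0.0187). The call was lost when −Dox replicate 2 (adjusted p = 0.0889), −Dox replicate 3 (0.0533), +Dox replicate 1 (0.0781) or +Dox replicate 2 (0.0581) was left out. In limma on TPM it was lost with all libraries (adjusted p = 0.0672) and in each of the 6 fits with a library left out. MRPS31 has copies on the same chromosome, and MRPS31P5, named here after its values were seen, held 16.2% as many counts as MRPS31 itself, so that the split of reads between them is uncertain.

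MRPS30 lies at chr5:44808947-44820428 on the plus strand. Its symbol places it in the small subunit, but in structures of the mammalian mitochondrial ribosome the protein sits in the large subunit. It was at 103.4, 97.2 and 97.8 TPM in −Dox and at 79.4, 84.9 and 81.7 TPM in +Dox. Here −Dox replicate 2 was the lowest library of its group and +Dox replicate 2 the highest of its own, and the groups were well apart. MRPS30 fell with a log2 fold change of −0.24 (SE 0.044, edgeR adjusted p = 0.00256), and the call held without each library (adjusted p at most 0.0127).

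**Figure D2:**
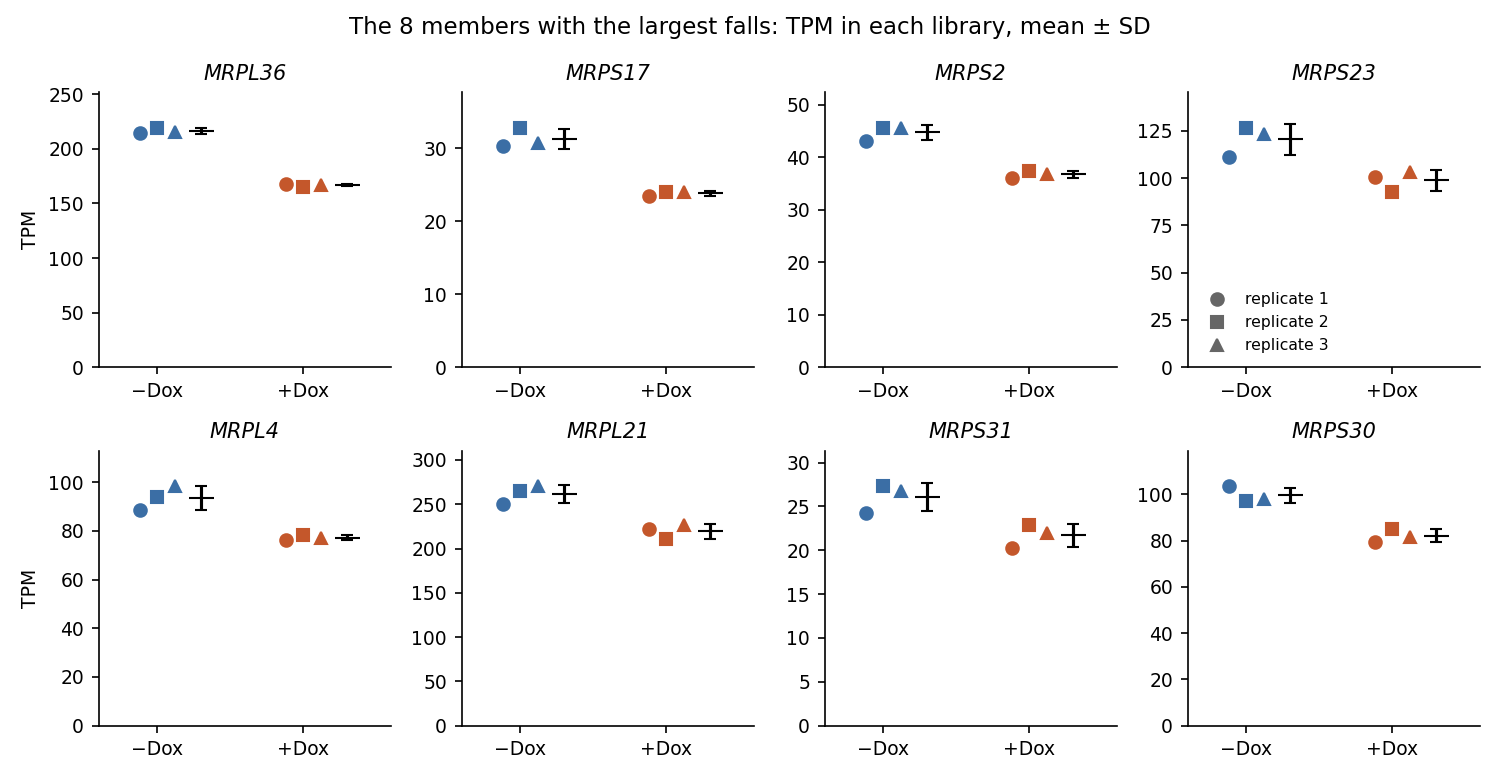
TPM (y axis, from 0) in each of the 3 −Dox and 3 +Dox libraries for the 8 members with the largest falls, with the replicate number as the symbol and the mean ± SD beside the points. In each panel all +Dox points lie below all −Dox points, from MRPL36 (216 to 167 TPM) to MRPS30 (99.5 to 82.0 TPM).

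The rest of the small-subunit genes that fell were MRPS22 (log2 fold change −0.22, SE 0.045, edgeR adjusted p = 0.00551) and MRPS27 (−0.22, SE 0.046, adjusted p = 0.00702). MRPS22 averaged 139 TPM in −Dox and 116 TPM in +Dox, and MRPS27, a protein with repeats that bind RNA, 46.7 and 39.7 TPM. On the other strand, exons of COPB2 cover 38.9% of the exon bases of MRPS22. COPB2, named here after its values were seen, was at 83.4 TPM and did not pass (0.07, adjusted p = 0.348). The part of its reads in the counts of MRPS22 was not tested. DAP3, a GTP-binding protein of the small subunit first described as a mediator of cell death, was at 209.95, 208.98 and 199.21 TPM in −Dox and at 200.67, 209.86 and 199.26 TPM in +Dox. Its groups overlapped entirely, and the log2 fold change was 0.02 (SE 0.043, edgeR adjusted p = 0.818). MRPS12, the counterpart of the bacterial protein in which streptomycin resistance arises, was at 101.3, 110.6 and 107.2 TPM in −Dox and at 96.1, 88.5 and 89.8 TPM in +Dox. It was lower in all +Dox libraries on the TPM scale but not in CPM, and did not pass (−0.20, SE 0.074, adjusted p = 0.0816). It passed in 6 of 18 fits, among them DESeq2 (adjusted p = 0.0254), limma on TPM (0.0445) and edgeR without −Dox replicate 1 (0.0133). MRPS36, now counted as a subunit of the oxoglutarate dehydrogenase complex and not of the ribosome, did not pass (0.05, SE 0.069, adjusted p = 0.687).

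MRPS18A, MRPS18B and MRPS18C are paralogs related to the same bacterial protein, and MRPS18A sits in the large subunit. MRPS18A averaged 58.5 ± 3.24 TPM in −Dox and 58.4 ± 1.45 TPM in +Dox (SD, n = 3 each). MRPS18B averaged 72.7 ± 2.16 and 70.2 ± 2.89 TPM, and MRPS18C 90.5 ± 4.31 and 92.1 ± 1.96 TPM. The groups overlapped for all 3 paralogs, and the log2 fold changes of 0.04, −0.02 and −0.0058 did not pass (edgeR adjusted p = 0.760, 0.834 and 0.960).

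The balance of the subunits was compared because doxycycline acts on this ribosome. The summed TPM of the 49 large-subunit genes was 5289, 5534 and 5467 in −Dox and 5029, 4917 and 5099 in +Dox. The summed TPM of the 30 small-subunit genes was 2654, 2789 and 2757 in −Dox and 2531, 2499 and 2509 in +Dox. Neither sum overlapped between the groups, and the mean was 7.64% lower in +Dox for the large and 8.05% lower for the small subunit. The ratio of the large to the small sum was 1.993, 1.984 and 1.983 in −Dox and 1.987, 1.967 and 2.032 in +Dox. These ratios overlapped, with means of 1.987 ± 0.0055 and 1.995 ± 0.033 (SD, n = 3 each), and no test was made of a sum over the members.

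The share that fell was 26.5% of the large and 23.3% of the small subunit, and the difference was not tested. The order of these shares turned with the length offset, where 3 large-subunit (6.12%) and 5 small-subunit genes (16.7%) fell, and in edgeR without each single library. With single libraries left out, 21 large-subunit genes fell without −Dox replicate 1, 2 without −Dox replicate 2, 3 without −Dox replicate 3, 4 without +Dox replicate 1, 2 without +Dox replicate 2 and 10 without +Dox replicate 3. For the small subunit 14 fell without −Dox replicate 1 and 5 to 7 without any other library. In TPM, +Dox was below −Dox without overlap for 31 of 49 large-subunit genes (63.3%) and 18 of 30 small-subunit genes (60.0%). With MRPS30 and MRPS18A counted in the large subunit and MRPS36 in neither, 14 of 51 large-subunit and 6 of 27 small-subunit genes fell, and the medians were −0.13 and −0.10. Taken by the median gene, the subunits stood differently: the median TPM of the large-subunit genes was 92.4, 97.1 and 98.3 in −Dox and 81.60, 80.90 and 79.01 in +Dox, while that of the small-subunit genes was 81.7, 89.1 and 82.9 in −Dox and 82.1, 83.5 and 81.1 in +Dox. The median gene of the large subunit was thus lower in all +Dox libraries and that of the small subunit overlapped. This large-subunit median is the value of 1 gene in each library. In −Dox replicate 1 and +Dox replicates 2 and 3 that gene was MRPL16, and in −Dox replicate 3 it was MRPL4, both among the genes that fell. The sums of both subunits, by contrast, were lower in all +Dox libraries. A grouping by origin, made after values were seen, split the members other than MRPS36 into 44 with a bacterial counterpart (numbers up to 36 in MRPL and up to 21 in MRPS), of which 11 fell, and 34 found only in mitochondria, of which 9 fell. By subunit symbol the shares went opposite ways: 9 of 28 large-subunit genes (32.1%) and 2 of 16 small-subunit genes (12.5%) with a counterpart fell, against 4 of 21 (19.0%) and 5 of 13 (38.5%) of those found only in mitochondria. These 5 include MRPS30, and the 16 include MRPS18A, which did not pass, although both proteins sit in the large subunit. With all libraries 7.68% of all genes fell. Without −Dox replicate 2 (5.06% of all genes), the large-subunit calls left were MRPL36 and MRPL16, both with a counterpart. Those left in the small subunit by symbol were MRPS17, with a counterpart, and MRPS22, MRPS23, MRPS27 and MRPS30, found only in mitochondria. The differences between these shares were not tested.

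**Figure D3:**
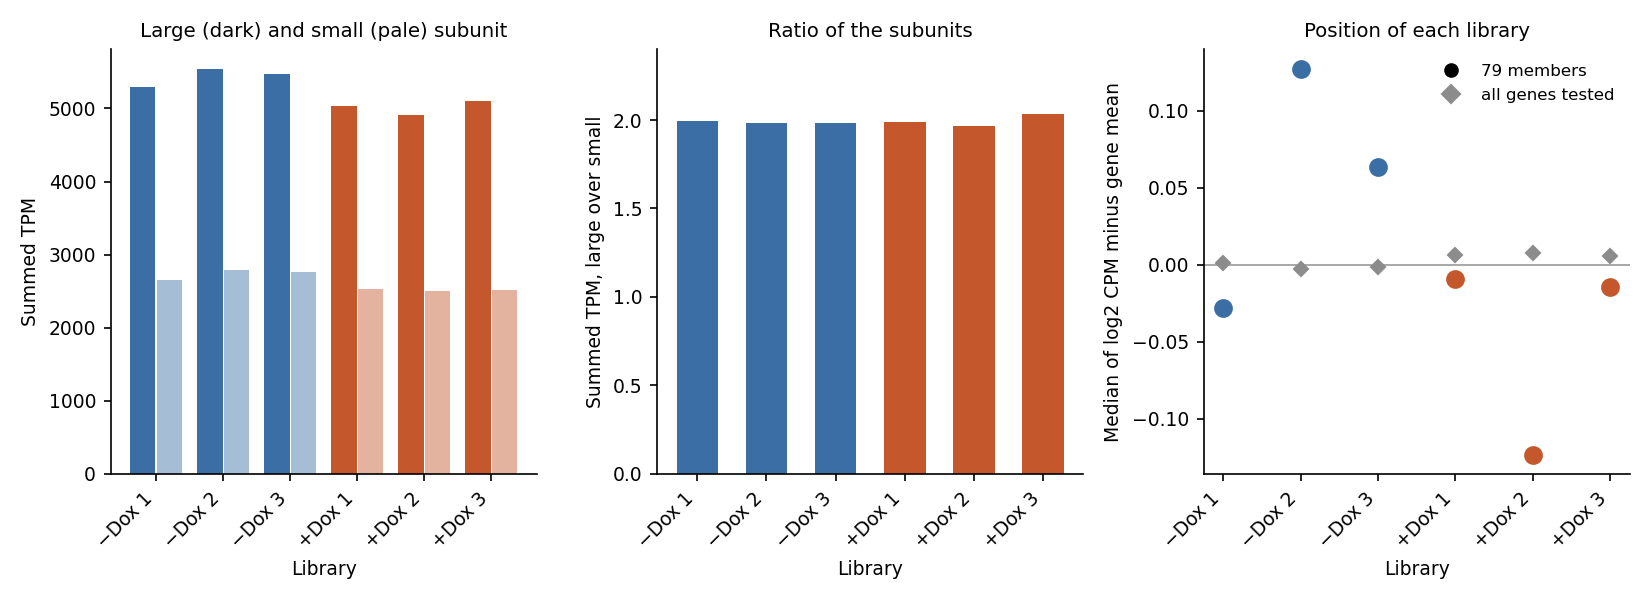
Values by library (x axis) in 3 panels: summed TPM of the large and small subunit, the ratio of these sums, and the median over genes of log2 CPM minus the gene's mean for the members (circles) and for all genes tested (diamonds). The sums are lower in all 3 +Dox libraries while the ratio stays between 1.967 and 2.032, and the circles show −Dox replicate 2 at 0.13 and +Dox replicate 2 at −0.12 as the outer libraries.

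The members differed 15.7-fold in mean TPM, and 30 of them were above 100 TPM. The highest were MRPL41 at 269 TPM, MRPL21 at 241 TPM, MRPL20 at 229 TPM, MRPS24 at 227 TPM and MRPL52 at 217 TPM, which held 15.1% of the summed TPM. In −Dox they were 281 ± 18.2, 262 ± 10.1, 242 ± 10.5, 236 ± 10.6 and 215 ± 8.09 TPM (SD, n = 3 each), and the ranges of each pair of neighbours in this order overlapped. Of these genes MRPL21 fell, while MRPL41, MRPL20, MRPS24 and MRPL52 did not pass (edgeR adjusted p = 0.377, 0.140, 0.305 and 0.807). Without −Dox replicate 1, MRPL41, MRPL20 and MRPS24 passed as well (adjusted p = 0.0354, 0.0412 and 0.0493). The lowest members were MRPL44 at 17.2 TPM, MRPL57 at 18.3 TPM, MRPS31 at 23.9 TPM, MRPL10 at 24.4 TPM and MRPL50 at 25.7 TPM. MRPL44 and MRPS31 fell, while MRPL57, MRPL10 and MRPL50 did not pass (adjusted p = 0.937, 0.0724 and 0.370). Across the 79 genes, which are not independent replicates, Pearson's r between the log2 mean TPM of the groups was 0.993.

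Salmon gives values for separate transcripts, so the share of each transcript in its gene was compared. Of 582 transcripts listed for the members, 444 from 70 genes were tested with limma on the log2 ratio of a transcript to the other transcripts of its gene. None passed an adjusted p under 0.05 (background 0.0864%), and 13 were under an unadjusted p of 0.05, which is 2.93% where 6.89% of all transcripts tested were. The smallest adjusted p, 0.580, belonged to MRPS27-225, a transcript annotated as subject to nonsense-mediated decay that held 0.493% ± 0.035 of the gene's TPM in −Dox and 0.0404% ± 0.070 in +Dox (SD, n = 3 each). MRPL28-207 and MRPL1-204 followed (limma adjusted p = 0.651 and 0.660). The canonical transcript led in 61 members, with a median share of 82.8% in −Dox and 81.5% in +Dox. In MRPL11, MRPL42, MRPS14 and MRPS25 the leading transcript was annotated as subject to nonsense-mediated decay, and in MRPL17 and MRPS11 as one with a retained intron.

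The genes lie on 21 chromosomes, with 9 on chromosome 1. Annotation holds 83 pseudogenes or further copies named after 37 of the members, and together they had 0.137% to 0.208% as many counts as the members in each library. Of these copies 5 passed the filter on low counts and 0 were called by edgeR. Of all 83 copies, MRPL45P2 at 7.13 TPM and MRPL57P3 at 4.20 TPM were the highest. MRPL57P3 did not pass the filter and rested on 21, 2, 3, 0, 0 and 1 counts in the 6 libraries. The strand setting of the counting is not given in the sources used here, so reads of genes that overlap a member on the other strand are uncertain.

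Of the 79 members, 27 (34.2%) have a protein-coding gene that starts on the other strand within 1000 bases, compared with 13.4% of all protein-coding genes. These distances run between the outermost annotated starts of the genes. Between the starts of canonical transcripts, 28 members (35.4%) and 10.0% of protein-coding genes have such a neighbour. The outermost start of MRPL36 lies 41 bases from NDUFS6, a subunit of respiratory complex I, but its canonical transcript, which held 87.5% of its TPM in −Dox, starts 1570 bases from the canonical start of NDUFS6. NDUFS6 was at 643, 675 and 660.3 TPM in −Dox and at 708, 653 and 614 TPM in +Dox, with overlapping groups, and did not pass (log2 fold change −0.03, SE 0.081, edgeR adjusted p = 0.885), while MRPL36 fell. MRPL21 starts 28 bases from IGHMBP2 (59 by canonical transcripts), a helicase, which was at 7.78, 7.53 and 7.63 TPM in −Dox and at 6.34, 6.63 and 5.55 TPM in +Dox and fell (−0.21, SE 0.067, adjusted p = 0.0483). MRPS30 starts 170 bases from the noncoding gene MRPS30-DT, which did not pass (−0.10, SE 0.106, adjusted p = 0.602).

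Promoter windows from 250 bases before to 50 bases after the start were taken from RefSeq (GRCh38.p14) for 70 members, which have 87 such windows. They were searched on both strands for the letters CCGGAAG, the core bound by ETS family factors including GABP, which is known to drive genes of mitochondrial proteins. AAGATGGCG, bound by YY1, GCGCA and GCGC with any base between them, bound by NRF1 (nuclear respiratory factor), and CCAAT, bound by NF-Y, were searched likewise. The ETS letters were in 37.9% of the members' promoters, in 10.3% of all 35116 promoters and in 22.9% of promoters of protein-coding genes with at least as much TPM as the lowest member. The YY1 letters were in 14.9%, 1.75% and 4.66%, the NRF1 letters in 11.5%, 5.78% and 12.8%, and CCAAT in 32.2%, 34.6% and 37.6%. Some genes have overlapping windows, so that the 45 ETS matches are 40 separate sites, of which 28 lay within 50 bases of a start, as did 11 of 14 YY1 sites. Among members that fell, 30.8% of promoters held the ETS, 11.5% the YY1, 7.69% the NRF1 and 42.3% the CCAAT letters. These shares were 41.0%, 16.4%, 13.1% and 27.9% among members that did not pass, and the differences were not tested. A match is a run of letters and was not tested as a binding site.

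Of the 8 members with the largest falls, 4 have a promoter with an ETS, YY1 or NRF1 match, and these promoters are printed 5′ to 3′ on the strand of the gene, with matches to these 3 on either strand in capitals and CCAAT left unmarked. They show how these letters lie in genes that fell. In MRPL36 (chr5:1799788-1800087, minus strand) the capitals are an NRF1 and then a YY1 match, 110 and 36 bases before the start of the canonical transcript, so that this window does not reach NDUFS6. In MRPS23 (chr17:57849995-57850294, minus strand) and MRPS31 (chr13:40771141-40771440, minus strand) they are an ETS match 14 and 32 bases before the start. In MRPS30 (chr5:44808697-44808996, plus strand) they are a YY1 match 13 bases after the start.
MRPL36: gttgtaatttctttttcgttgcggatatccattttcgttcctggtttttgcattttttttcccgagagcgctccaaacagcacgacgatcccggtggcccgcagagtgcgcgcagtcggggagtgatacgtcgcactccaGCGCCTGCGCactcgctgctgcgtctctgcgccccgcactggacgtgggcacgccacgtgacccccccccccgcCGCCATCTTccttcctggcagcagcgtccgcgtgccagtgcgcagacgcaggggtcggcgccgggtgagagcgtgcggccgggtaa
MRPS23: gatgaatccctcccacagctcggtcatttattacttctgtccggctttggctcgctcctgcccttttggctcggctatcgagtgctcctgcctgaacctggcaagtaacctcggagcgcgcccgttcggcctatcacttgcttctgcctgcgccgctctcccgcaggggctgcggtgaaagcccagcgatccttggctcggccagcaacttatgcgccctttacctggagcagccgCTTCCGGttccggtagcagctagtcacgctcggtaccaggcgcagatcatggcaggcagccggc
MRPS31: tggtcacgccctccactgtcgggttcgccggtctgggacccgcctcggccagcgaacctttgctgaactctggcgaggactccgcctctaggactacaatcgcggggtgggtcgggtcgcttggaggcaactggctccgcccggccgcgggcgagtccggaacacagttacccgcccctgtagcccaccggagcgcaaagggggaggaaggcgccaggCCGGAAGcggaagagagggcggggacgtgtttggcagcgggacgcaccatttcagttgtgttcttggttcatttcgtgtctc
MRPS30: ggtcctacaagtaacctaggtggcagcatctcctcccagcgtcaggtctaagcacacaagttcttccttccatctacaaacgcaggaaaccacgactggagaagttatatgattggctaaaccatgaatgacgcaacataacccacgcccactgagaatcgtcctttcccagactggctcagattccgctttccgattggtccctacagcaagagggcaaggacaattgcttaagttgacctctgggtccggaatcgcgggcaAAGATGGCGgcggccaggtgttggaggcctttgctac

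**Figure D4:**
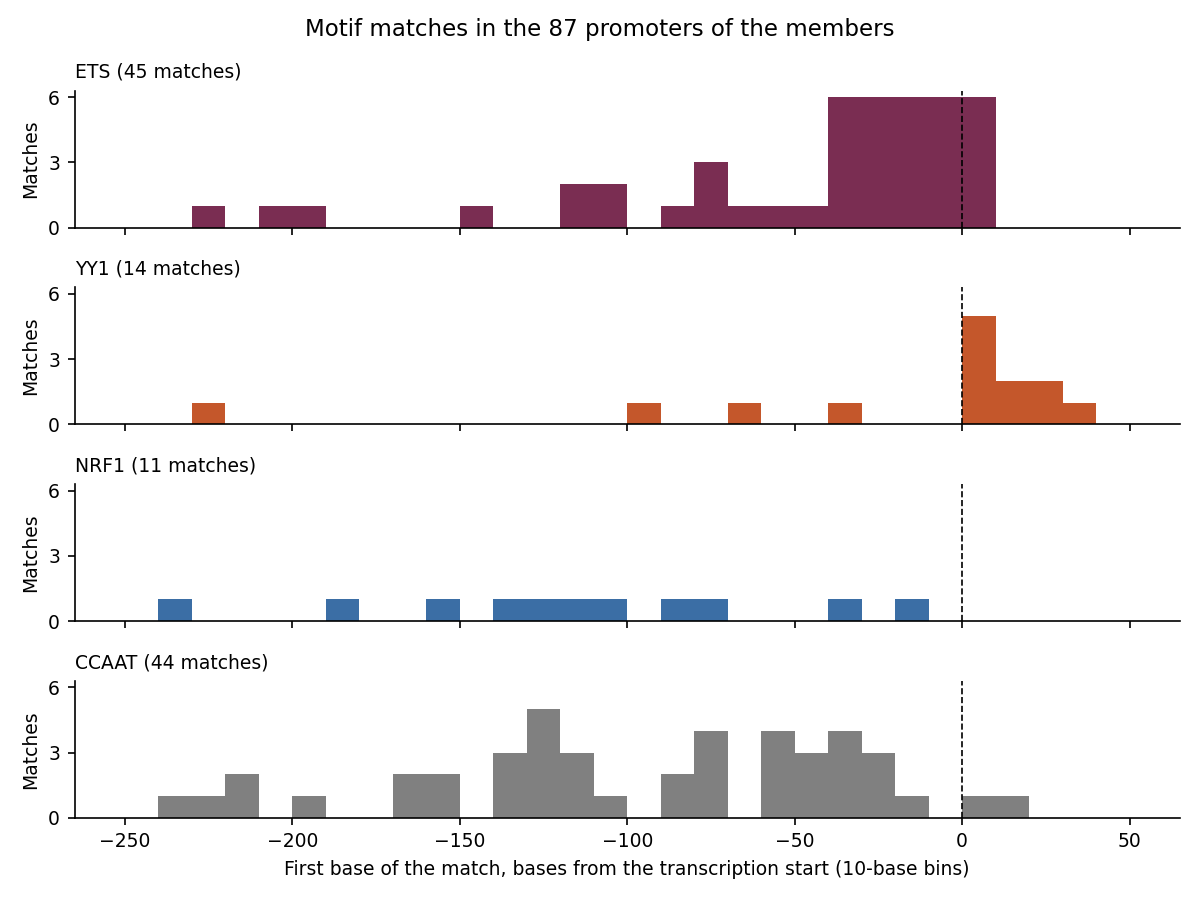
Number of motif matches (y axis) by the distance of their first base from the transcription start (x axis, bins of 10 bases) in the 87 promoters of the members, for ETS (45 matches), YY1 (14), NRF1 (11) and CCAAT (44). A site in overlapping windows of a gene is counted in each, and the separate sites number 40, 14, 10 and 37. ETS and YY1 matches gather near the start, with 68.9% and 78.6% of them within 50 bases of it.

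Genes that work with the mitochondrial ribosome were counted from lists in the same edgeR fit, where 7.68% of all genes fell and 8.16% rose. The 4 structural proteins named otherwise did not pass. PTCD3, a small-subunit protein that binds RNA, had a log2 fold change of −0.10 (SE 0.045, adjusted p = 0.150), GADD45GIP1, a large-subunit protein, −0.15 (SE 0.072, adjusted p = 0.208), CHCHD1 −0.08 (SE 0.085, adjusted p = 0.588) and AURKAIP1 −0.03 (SE 0.078, adjusted p = 0.849). With −Dox replicate 1 left out GADD45GIP1 passed, at an adjusted p of 0.0301. Of 29 genes of ribosome assembly and rRNA modification, 6 fell and 2 rose, with a median log2 fold change of −0.09. The pseudouridine synthase RPUSD4 fell from 24.4 ± 0.874 to 20.02 ± 1.83 TPM (−0.27, adjusted p = 0.00379), the 2′-O-methyltransferase MRM3 from 14.0 ± 1.14 to 11.1 ± 0.815 TPM (−0.32, adjusted p = 0.00724) and the GTPase MTG2 from 20.8 ± 2.17 to 14.4 ± 2.51 TPM (−0.30, adjusted p = 0.00775). In limma on log2(TPM + 0.5) these calls were lost, at adjusted p of 0.0683, 0.0615 and 0.0595, and that of MRM3 was also lost with the length offset (0.0577). MTG1, another assembly GTPase, rose from 8.30 ± 1.29 to 12.01 ± 1.85 TPM (0.35, adjusted p = 0.00989), a call lost without −Dox replicate 2 (adjusted p = 0.0555) and in limma (0.0814). The number called in this list in either direction was 11 without −Dox replicate 1, where 15.8% of all genes were called, 3 without −Dox replicate 2 (10.7%) and 4 without +Dox replicate 2 (11.9%). It was 5 without −Dox replicate 3 (11.2%), +Dox replicate 1 (11.5%) or +Dox replicate 3 (10.8%), against 8 with all libraries (15.8%).

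Of 19 mitochondrial translation factors and mRNA-handling proteins, 4 fell and 1 rose, with a median of −0.09. The recycling factor MRRF fell from 51.3 ± 1.599 to 44.7 ± 0.339 TPM (log2 fold change −0.24, edgeR adjusted p = 0.00501, and 0.115 with the length offset), and the elongation factor TUFM, which brings charged tRNA to the ribosome, fell from 156 ± 6.40 to 127 ± 1.101 TPM (−0.26, adjusted p = 0.00872). The initiation factor MTIF2 fell from 69.97 ± 1.88 to 58.1 ± 1.44 TPM (−0.19, adjusted p = 0.0121, and 0.0553 without +Dox replicate 2). MTRES1, a factor that rescues stalled mitochondrial ribosomes, rose from 13.2 ± 0.403 to 17.4 ± 1.43 TPM (0.37, adjusted p = 0.00554). Of 17 alternative fits, MTIF2 lost its call in 2 and MTRES1 in 1. Genes of the mitochondrial genome, which encode what this ribosome translates and its rRNA, went both ways: 3 of 15 rose, 1 fell and 11 did not pass. MT-CYB rose from 4992 ± 199 to 6108 ± 160 TPM (0.31, adjusted p = 7.54e-04). MT-ATP8 and MT-ATP6, which overlap on 1 mRNA and share reads, had log2 fold changes of 0.33 and 0.22 (adjusted p = 0.00435 and 0.00445). Over 17 alternative fits MT-ATP8 lost its call in 1 and MT-ATP6 in 2. MT-CO1 fell with a log2 fold change of −0.18 (adjusted p = 0.0451), but its groups overlapped in CPM and the call was lost in 10 of the 17 fits. Among the edgeR fits with 1 library left out, it was called only without +Dox replicate 3 (adjusted p = 0.0116). Its adjusted p was 0.132, 0.113 and 0.0509 when −Dox replicates 1, 2 and 3 were left out in turn, and 0.149 and 0.121 when +Dox replicates 1 and 2 were.

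Of 10 chaperones and proteases of mitochondria 6 fell and 0 rose, with a median of −0.22, among them HSPD1, the large chaperonin of the matrix, from 632 ± 15.02 to 505 ± 22.9 TPM (log2 fold change −0.28, edgeR adjusted p = 7.17e-04). HSPA9, the import motor, followed (−0.27, adjusted p = 0.00115), then TRAP1 (−0.29, adjusted p = 0.00158) and DNAJA3 (−0.25, adjusted p = 0.00282). Of 12 transcription factors and coactivators of mitochondrial biogenesis tested, 6 fell and 0 rose, with a median of −0.16. MYC, which drives growth and ribosome genes, fell from 69.1 ± 3.93 to 42.7 ± 2.30 TPM (−0.69, adjusted p = 2.15e-06). TFB2M, the initiation factor of mitochondrial transcription, fell from 65.5 ± 2.63 to 46.2 ± 1.496 TPM (−0.47, adjusted p = 8.08e-05). The coactivator PPARGC1B fell from 3.92 ± 0.547 to 2.81 ± 0.502 TPM (−0.54, adjusted p = 4.09e-04), and the mitochondrial RNA polymerase POLRMT from 17.5 ± 1.08 to 14.2 ± 0.966 TPM (−0.26, adjusted p = 0.0102), a call lost when −Dox replicate 3 (0.0530) or +Dox replicate 3 (0.0567) was left out. In limma on log2(TPM + 0.5) the calls of DNAJA3 (adjusted p = 0.0669), PPARGC1B (0.141) and POLRMT (0.0577) were lost, and with the length offset those of PPARGC1B (0.0585) and POLRMT (0.0703).

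Targets of ATF4, the factor that mitochondrial stress can switch on, fell in 8 and rose in 1 of 18 genes tested, with a median of −0.18. GDF15, a secreted stress signal, fell from 30.9 ± 3.68 to 21.03 ± 0.200 TPM (log2 fold change −0.54, edgeR adjusted p = 1.24e-04). CHAC1 fell from 1.42 ± 0.926 to 0.375 ± 0.060 TPM (−1.91, adjusted p = 0.00384) and ATF3 from 6.38 ± 2.32 to 3.32 ± 0.274 TPM (−0.89, adjusted p = 0.00433), with −Dox replicate 1 the highest library for both. PCK2, a mitochondrial enzyme, rose from 11.7 ± 1.30 to 13.2 ± 0.232 TPM (0.33, adjusted p = 0.00472). In limma on log2(TPM + 0.5) the calls of CHAC1 (adjusted p = 0.107), ATF3 (0.0840) and PCK2 (0.272) were lost, and PCK2 also did not pass with the length offset (0.168). Without +Dox replicate 1 or +Dox replicate 3 the list held 4 calls (11.5% and 10.8% of all genes), and without +Dox replicate 2 it held 5 (11.9%). The cytosolic ribosomal proteins, which form the other ribosome of the cell, showed 2 that rose and 1 that fell among 85 tested, with a median of 0.04. RPL36A rose (0.33, adjusted p = 7.89e-04), RPL23A rose (0.20, adjusted p = 0.0201) and RPL7L1, a paralog, fell (−0.19, adjusted p = 0.00949), while RPS27L did not pass (0.19, adjusted p = 0.0572). Over 17 alternative fits RPL7L1 lost its call in 2, and RPS27L gained one in 7. RPL23A lost its call in 10 of these fits. Among the edgeR fits with 1 library left out, it was called only without +Dox replicate 2 (adjusted p = 0.00402). Its adjusted p was 0.0502, 0.0607, 0.0613, 0.0880 and 0.0693 when −Dox replicates 1 to 3 and +Dox replicates 1 and 3 were left out in turn. The whole list held 6 calls without +Dox replicate 2 (11.9% of all genes). Cytosolic ribosomal protein genes have many near-identical pseudogenes, so that their counts are uncertain.

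**Figure D5:**
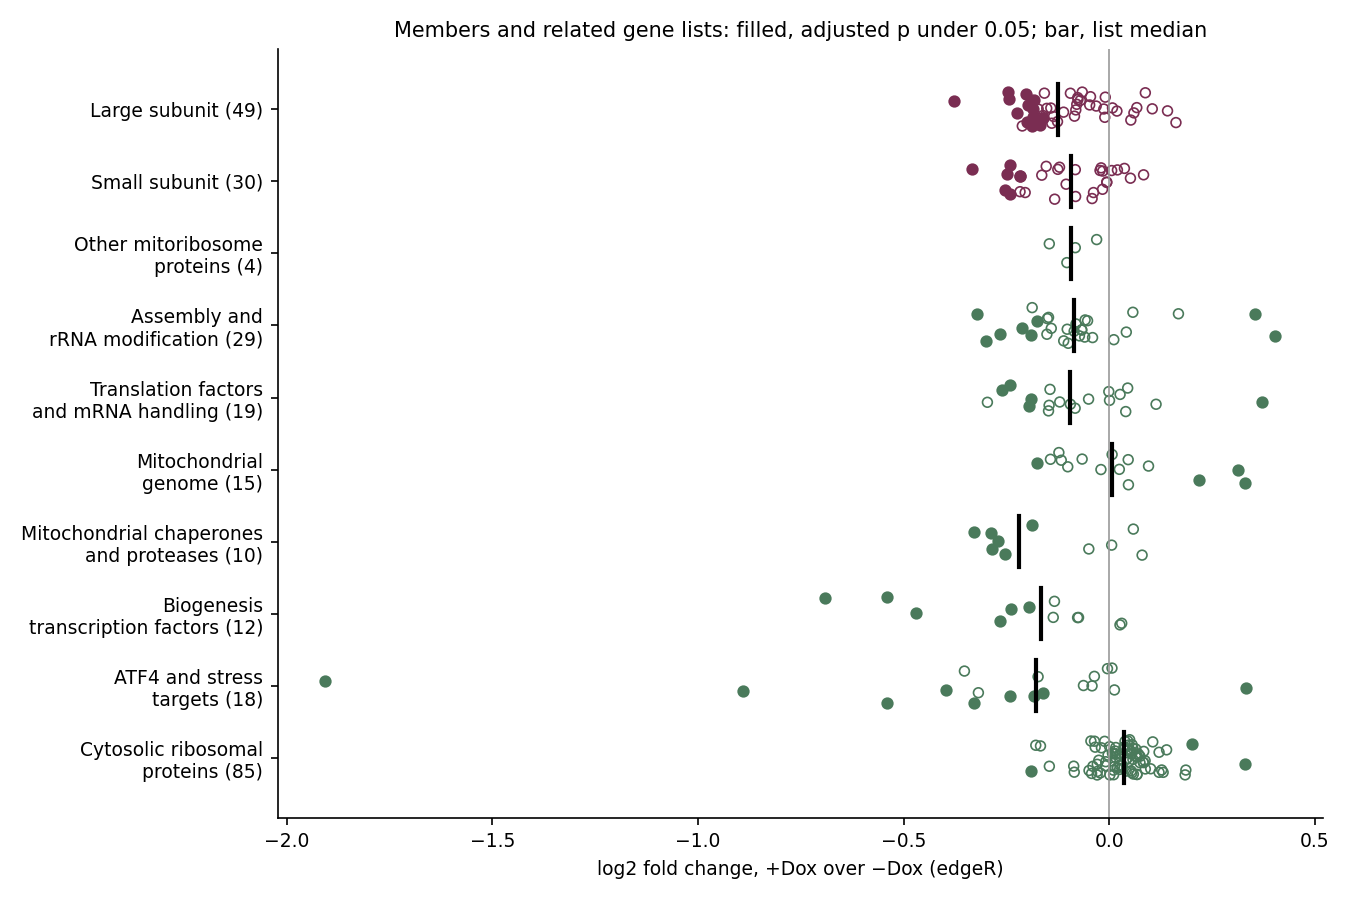
Log2 fold change in +Dox over −Dox (x axis, edgeR) for each gene of the large and small mitochondrial ribosomal subunit and of 8 related lists, with the number of genes tested in parentheses. Filled points passed an adjusted p under 0.05 and black bars are medians. The medians of both mitochondrial subunits (−0.13 and −0.09) lie left of 0 and that of the cytosolic ribosomal proteins (0.04) lies right of it.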

How the data were processed

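Polyadenylated RNA was sequenced (paired end, 150 cycles) from 6 K562 libraries. Salmon 1.10.2 was used by the authors, who deposited 1 table per library without pooling replicates. Each table gives a transcript's estimated count, which the authors left unscaled, and its TPM as deposited, which corrects for effective length. The notes name hg38. The index, strand and bias settings are not given in the sources used here.

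Of 252045 transcripts, 251612 matched GENCODE 44 without regard to version. Estimated counts were summed by gene and rounded. The quasi-likelihood test of edgeR 4.0.16 (R 4.3.3, TMM factors 0.974 to 1.03) was run two-sided on genes whose mean count exceeded 10, with Benjamini-Hochberg adjustment over all genes tested. Transcript shares were tested with limma 3.58.1 (pseudocount 0.1 TPM, gene at a mean of at least 1 TPM). Alternatives were DESeq2 1.42.0, RLE factors, library totals, other filters, a length offset, limma on log2 TPM with pseudocounts of 0.5 and 0.1, a replicate block and each library left out in turn. Scripts were tested on simulated data. Differences between replicates of a group were above counting noise (chi-square of 8.16 to 17.5 per gene). This does not show whether the replicates were separate cultures, and each library was counted as 1 sample.

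The members and lists were chosen with earlier results of these data known, and support nothing by themselves. Genes named are PCBP1, the 8 largest rises and falls among members past the threshold, the 5 highest and lowest in TPM, 11 with a known identity, up to 4 of each list by p, the 3 transcripts with the smallest p, partners within 1000 bases and the 2 highest pseudogenes.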

Additional observations from a re-analysis of the deposited data

How the results depend on the processing

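The log2 fold change of PCBP1 stayed past the threshold in every fit, and the 0 members past the limits of the study, the 0 transcript shares called and the 0 members that rose were the same in every fit that gave them. Of single genes named, 842 results kept their side of the threshold over the alternatives, 96 lost a call, 31 gained one and 0 changed sign with a call in either fit. The sign of 28 values differed from the reported fit without a call in either, all from AURKAIP1, DAP3, MRPL52, MRPL57, MRPS18A, MRPS18C and MRPS36. The number of members that fell (20) was 8 with a transcript length offset, of which 3 were in the large subunit (13), and the cause was not tested. Leaving out 1 library in edgeR gave 7 to 35 members, 2 to 21 in the large and 5 to 14 in the small subunit (7), and a median log2 fold change of −0.16 to −0.06 over the members and −0.17 to −0.07 over the large subunit. With both replicate 2 libraries left out, chosen after seeing the data, 2 members fell, 1 in each subunit, and the medians were −0.038 over the members and −0.041 over the large subunit. In limma on log2(TPM + 0.5), also added after seeing the data for single libraries left out, 14, 5 and 4 members fell without −Dox replicates 1, 2 and 3 and 4, 11 and 5 without +Dox replicates 1, 2 and 3, against 21 with all libraries. The share of all genes that fell was 3.09%, 2.35%, 2.05%, 2.35%, 4.39% and 2.19% in these fits, against 5.81%. Of these 6, 2, 1, 1, 6 and 3 were in the large and 8, 3, 3, 3, 5 and 2 in the small subunit.

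The ratio of the subunits was 1.14 in −Dox and 0.979 in +Dox by the median gene, where 1 gene per library sets the large-subunit value. It was 2.23 and 2.24 by place in the ribosome. Calls in the other lists with 1 library left out were 0 to 1 for other structural proteins, 3 to 11 for assembly factors (8), 4 to 8 for ATF4 targets (9) and 2 to 6 for cytosolic ribosomal proteins (3), of which DESeq2 called 5.

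Replicate numbers did not pair the libraries: deviations of same-numbered libraries correlated at 0.0075, −0.060 and −0.0029. With a replicate block, 10 members fell (12.7%, where 5.52% of all genes fell), 3 of them in the large subunit, and 5 assembly factors, 3 translation factors, 2 genes of the mitochondrial genome and 1 cytosolic ribosomal protein were called in either direction, as were 11.8% of all genes. The lowest mean count of a member was 2021.5, and the error of each difference rests on 3 libraries per group. The drug and the protein it induces cannot be told apart here.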
